A study of Mus musculus with 4 samples.

Results

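In B cells that express MIZ-1 without its POZ domain, 32047 MIZ-1 ChIP-seq peaks lay away from promoters in repeat-masked sequence and overlapped no peak of wild-type B cells. Most of them were low, stood on sequence with more than 1 copy in the genome, and lay between genes, the last in a share close to that of comparable repeat windows (66.6% and 64.8%). They made up 40.9% (95% Wilson interval 40.6 to 41.2) of the 78357 peaks in the MIZ-1DPOZ list. A peak was taken when it neither covered its nearest annotated start site nor lay less than 2000 bp before or 1000 bp after it, which left 61535 peaks. In the window of 100 bases to each side of its summit, more than 50% had to be soft-masked as repeat and at least 40% had to be G or C, which left 40304 peaks. Of these, 32047 (79.5%) shared no base with any of the 34209 MIZ-1WT peaks, near the 77.9% found for all MIZ-1DPOZ peaks. The number follows the length of the lists, and with the MIZ-1DPOZ list cut to its 34209 strongest peaks by p-value 13273 of them were left. The start-site annotation was GENCODE basic and the genome was GRCm38, the assembly also called mm10.

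The ChIP-seq experiment compared B220+ splenocytes of wild-type mice (MIZ-1WT) with those of MB1-Cre x Miz-1floxPOZ mice (MIZ-1DPOZ). In the latter, the Cre recombinase driven by the B lineage gene Mb1 removes the POZ domain from MIZ-1, so that cells make a shortened protein that keeps its zinc fingers. All mice were on a C57BL/6 background and several weeks old, and chromatin was precipitated from both genotypes with the same MIZ-1 antibody, H-190. Each genotype had 1 ChIP library and 1 input library. No value below therefore has a replicate, and intervals cover counting error only. B220 selection takes follicular and marginal zone B cells together. The paper reports a loss of follicular B cells and a higher frequency of marginal zone B cells in the MIZ-1DPOZ mice. The libraries can thus differ in cell mix, which cannot be told apart from the change in the protein.

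MIZ-1 (Zbtb17) is a transcription factor that reads DNA through zinc fingers and uses its POZ domain to form multimers and to meet partner proteins. Repeats make up a large part of the mouse genome. They include transposable elements, some of which carry promoters of their own, and simple runs in which a short unit is repeated in tandem. Copies of one element can be nearly identical, so that a short read often matches several of them and cannot be placed with certainty. How the authors treated such reads is not given in the sources used here. For the peaks with a multi-copy sequence, the fragments can be assigned to a kind of sequence more safely than to a single copy.

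The peaks were grouped by the sequences they had in common. The 20-base sequence held by most summit windows, on either strand, was taken first, then the one held by most of the remaining windows, until 10 sequences were found. Together these sequences were present in 12672 of the 32047 peaks (39.5%). They are shown because the results below turn on them, numbered by how many peaks each one added:
sequence 1: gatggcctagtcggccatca
sequence 2: cacacacacacacacacaca
sequence 3: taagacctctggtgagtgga
sequence 4: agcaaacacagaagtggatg
sequence 5: gagagagagagagagagaga
sequence 6: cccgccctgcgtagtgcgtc
sequence 7: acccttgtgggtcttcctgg
sequence 8: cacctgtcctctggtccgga
sequence 9: agaagaagaagaagaagaag
sequence 10: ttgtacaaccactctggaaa
Sequence 1 accounted for 3074 peaks, sequence 2 for 1563, sequence 3 for 1482 and sequence 4 for 1136. Sequences 5 to 10 followed with 1074, 1072, 1055, 815, 703 and 698 peaks. Sequences 2, 5 and 9 are tandem runs of a dinucleotide or a trinucleotide, and the other 7 are not. No repeat family was assigned to them, since a catalogue of repeat families was not used here.

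For 6 of these sequences, the strongest peak holding it is shown with its summit window in GRCm38, read along the strand on which the sequence runs as listed. Capitals mark the shared sequence.
sequence 1, chr6:125959152-125959352, plus strand: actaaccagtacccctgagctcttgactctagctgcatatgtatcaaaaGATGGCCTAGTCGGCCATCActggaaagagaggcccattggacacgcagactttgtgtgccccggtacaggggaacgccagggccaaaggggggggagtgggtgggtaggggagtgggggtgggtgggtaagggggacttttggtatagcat
sequence 4, chr6:14800480-14800680, plus strand: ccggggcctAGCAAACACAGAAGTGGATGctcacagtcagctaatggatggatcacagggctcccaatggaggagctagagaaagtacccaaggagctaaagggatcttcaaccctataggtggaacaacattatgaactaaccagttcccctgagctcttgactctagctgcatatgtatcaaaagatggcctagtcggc
sequence 3, chr8:67616886-67617086, minus strand: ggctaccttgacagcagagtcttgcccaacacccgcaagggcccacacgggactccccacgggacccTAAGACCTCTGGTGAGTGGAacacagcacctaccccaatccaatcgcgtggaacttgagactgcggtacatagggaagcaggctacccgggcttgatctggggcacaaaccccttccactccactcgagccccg
sequence 8, chrX:41776606-41776806, plus strand: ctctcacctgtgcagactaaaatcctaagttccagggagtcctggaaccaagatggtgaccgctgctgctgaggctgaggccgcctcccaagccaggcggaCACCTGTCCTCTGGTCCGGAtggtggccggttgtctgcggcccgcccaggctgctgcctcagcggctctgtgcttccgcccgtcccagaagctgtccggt
sequence 6, chr3:156803520-156803720, minus strand: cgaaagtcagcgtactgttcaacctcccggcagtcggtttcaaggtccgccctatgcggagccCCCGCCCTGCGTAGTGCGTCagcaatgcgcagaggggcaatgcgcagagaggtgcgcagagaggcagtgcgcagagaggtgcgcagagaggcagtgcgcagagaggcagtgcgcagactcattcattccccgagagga
sequence 7, chr10:121166943-121167143, minus strand: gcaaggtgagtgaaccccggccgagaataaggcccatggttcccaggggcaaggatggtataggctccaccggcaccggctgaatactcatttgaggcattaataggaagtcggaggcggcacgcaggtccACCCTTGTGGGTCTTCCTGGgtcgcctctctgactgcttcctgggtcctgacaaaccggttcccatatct
The windows of sequences 1 and 4 overlap in content, since the window of sequence 4 ends within the first bases of sequence 1. Over the genome, 56.1% of the 41095 copies of sequence 4 were followed by sequence 1 within 2000 bp on the same strand, most often after 177 bases. Likewise, 58.3% of the 30121 copies of sequence 10 were followed by sequence 4, most often after 682 bases. Sequences 10, 4 and 1 thus often followed each other in this order. Copies of sequences 3 and 8 often lay at a regular distance on the same strand instead. The commonest distance from one copy to the next was 208 bases for sequence 3 and 214 bases for sequence 8, and 32.0% and 33.0% of copies had a neighbour at that distance within 2 bp. No copy of sequence 3 had sequence 8 within 2000 bp after it. Sequences 6 and 7 were dispersed, with 5 and 4 gaps of at most 10 kb between neighbouring copies in the genome.

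The peaks were mostly low. The summit pileup, the number of fragments over the summit as recovered from the deposited fold and p-value, had a median of 12 (quartiles 10 and 16, lowest 6, highest 130). The median fold enrichment over the local background, as deposited, was 5.10 (quartiles 4.26 and 5.96), and the median −log10 q was 5.05. By comparison, the 8257 distal repeat peaks that did overlap a MIZ-1WT peak had a median pileup of 30 (quartiles 14 and 49) and a median fold of 8.03. The 17174 MIZ-1DPOZ-only distal peaks outside repeats had a median pileup of 11 and a median fold of 4.72. Since the peaks were chosen by being called in one list and not in the other, these values describe the selection and were not tested.

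**Figure D1:**
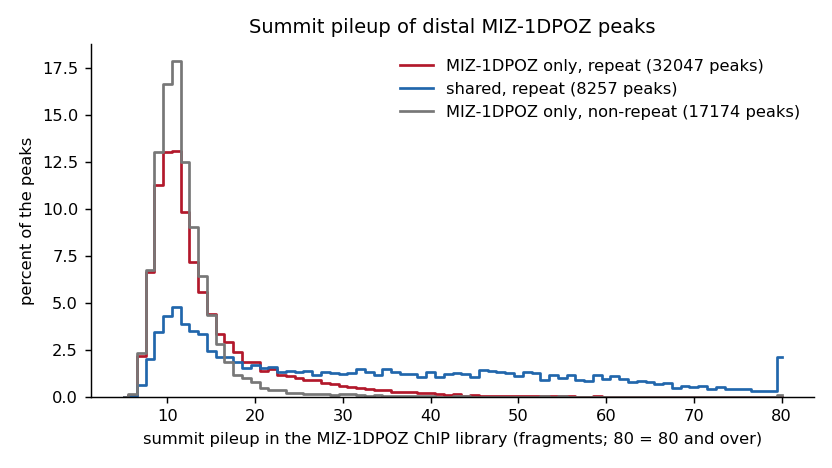
Percent of peaks (vertical axis) at each summit pileup in fragments (horizontal axis, with 80 and over drawn at 80) for 3 sets of distal MIZ-1DPOZ peaks. The 32047 MIZ-1DPOZ-only repeat peaks crowd around their median of 12, whereas the 8257 shared repeat peaks reach far higher, with a median of 30.

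The share of distal repeat peaks without a MIZ-1WT partner fell with height. It was 92.8% (6490 peaks) at pileups below 10, 75.6% at 20 to 29, 41.1% at 30 to 49 and 3.96% (85 peaks) at 50 or more. Over all heights it was 79.5% (79.1 to 79.9), near the 77.9% found for all MIZ-1DPOZ peaks, which the choice of peaks also used. The MIZ-1DPOZ ChIP library was estimated to be 1.34 times deeper from the most frequent background (1.35 and 0.860 fragments) and the smallest peak width (173 and 148 bp) of the lists. Divided by this ratio, the pileup of 99.9% of the peaks reached 5 fragments, the smallest MIZ-1WT pileup called at the most frequent background. With the ratio of the backgrounds, 1.57, 97.7% did. The calling of the MIZ-1DPOZ list largely fixed this outcome, since the lowest pileup of the peaks was 6. With the depth ratio, 99.98% of the shared repeat peaks and 99.88% of the non-repeat peaks also reached 5 fragments. No conclusion is drawn from these shares. The median of the MIZ-1WT list was higher than 5 fragments, and the scaled pileup of 43.7% of the peaks (43.2 to 44.3) reached its 9 fragments. The same held for 80.9% of the shared repeat peaks and for 30.7% of the non-repeat peaks. With the ratio of the backgrounds in place of the depth ratio, the 3 shares were 30.9%, 74.1% and 15.2%. The number of MIZ-1WT fragments at the same positions was not analysed here.

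In the MIZ-1WT list, 7333 of the 16281 distal repeat peaks (45.04%, 44.3 to 45.8) overlapped no MIZ-1DPOZ peak. The same share over all MIZ-1WT peaks was not analysed here, so that 45.04% is not read as a trait of repeat peaks. These MIZ-1WT-only peaks form the mirror set of the peaks described here. Their median pileup was 8 and their median fold 4.84. Folds of the lists were scaled separately and were not compared.

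Masking and GC within 100 bases of the summit were used to choose the peaks, so their values there, and a fall with distance, are a description of that choice. The share of repeat-masked bases was 95.95% next to the summit, 60.3% at 510 bp and 51.4% at 1990 bp, and 65.8% of the summit windows were masked in full. GC content fell over the same distances from 58.1% to 42.3% and 41.2%. The median summit window held 55.2% G or C and 4 CpG. In the shared repeat peaks the GC-rich stretch was broader, with 53.8% at 210 bp compared with 45.8% for the MIZ-1DPOZ-only peaks. The median widths of these peaks were 424 bp and 215 bp.

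**Figure D2:**
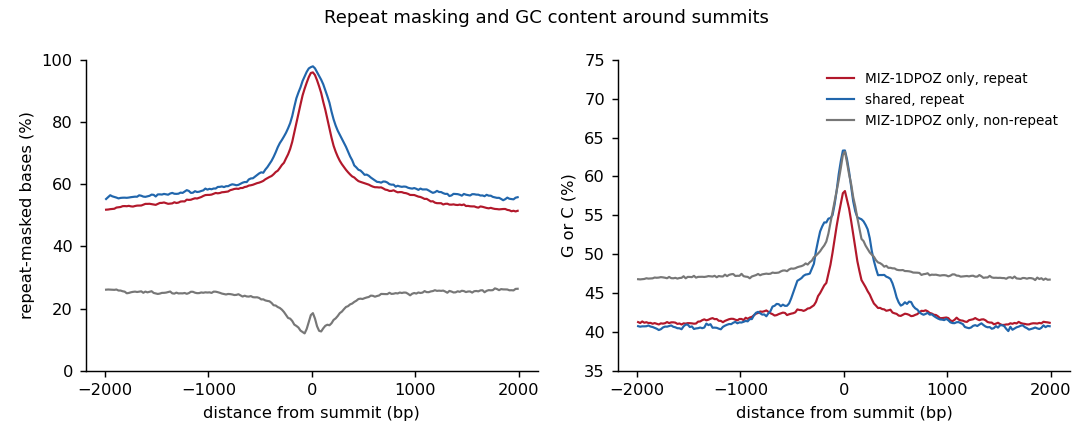
Mean percent of repeat-masked bases (left) and of G or C (right) in bins of 20 bp by distance from the summit, for the same 3 sets of distal MIZ-1DPOZ peaks. For the MIZ-1DPOZ-only repeat set, masking is 95.95% at the summit, where it was used to choose the peaks, and 51.4% at 1990 bp, and the GC curve of the shared repeat peaks is wider.

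Most of the peaks stood on sequence that occurs many times. Copy number was taken as the median genome count of 5 sequences of 50 bases around the summit. It was above 1 for 21161 peaks (66.0%, 65.5 to 66.5), above 100 for 42.6% and above 1000 for 23.5%. As a background, the genome was tiled into windows of the same length that met the same limits on masking, GC and start sites, and every 20th of 2097160 such windows was examined. In these 104858 windows, 37.9% (37.6 to 38.2) were multi-copy and 7.89% had over 1000 copies. Thus the peaks exceeded the background of repeat sequence by more than the counting error. They were below the shared repeat peaks, at 80.96% (80.1 to 81.8), and close to the MIZ-1WT-only repeat peaks, at 64.7% (63.6 to 65.8). The GC content of the background windows was held only to the same minimum and not to the same distribution.

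The sequences under the MIZ-1DPOZ-only peaks often lay in MIZ-1WT peaks at another place. At least 1 of the 5 sequences was found inside a MIZ-1WT peak elsewhere for 20648 peaks (64.4%, 63.9 to 65.0), compared with 24.7% (24.46 to 24.98) of the background windows and 3.52% of the MIZ-1DPOZ-only non-repeat peaks. A sequence with more copies has more chances to meet a MIZ-1WT peak, and the share rose with copy number in both sets. At 2 to 10 copies it was 61.6% for the peaks and 32.8% for the windows, at over 10 and up to 100 copies 78.6% and 36.9%, and at over 100 and up to 1000 copies 88.8% and 48.1%. Above 1000 copies, the values were 99.8% and 95.7%. Within each of these classes the peaks lay above the windows. With at least 3 of the 5 sequences required, 45.5% of the peaks and 10.8% of the windows met the condition. The rule chose positions that were not in the MIZ-1WT list, but for most of them the list held at least 1 of their sequences at another position.

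**Figure D3:**
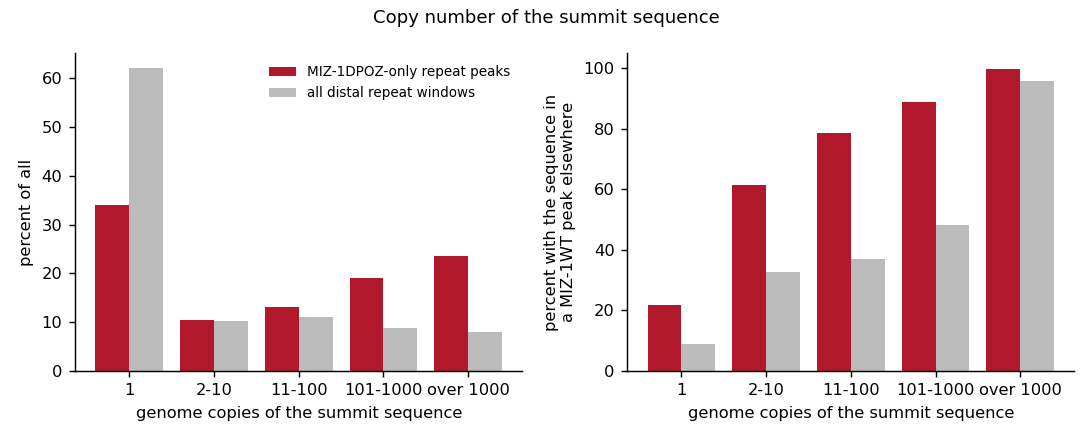
Left, percent of the MIZ-1DPOZ-only repeat peaks (red) and of all distal repeat windows (grey) in each class of genome copies of the summit sequence. Right, percent of each class with a summit sequence inside a MIZ-1WT peak elsewhere. The red bars are lower for single-copy sequence (34.0% against 62.1%) and higher for sequence of over 1000 copies (23.5% against 7.89%).

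The 10 shared sequences fell into different patterns of occupancy. For each sequence, every copy in the genome was located and counted as occupied when it lay inside a peak. Copies were counted at every position where the sequence starts. In the simple runs of sequences 2, 5 and 9 they overlap, so that one long run gives many copies. Several copies of sequences 3 and 8 can also lie in one peak. Copies are therefore not separate sites, and their intervals treat them as independent and are too narrow. The sequences were picked from MIZ-1DPOZ-only peaks, so their occupancy in MIZ-1DPOZ peaks, and any excess over MIZ-1WT peaks, is a description of that choice and was not tested.

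Sequences 6 and 7 were dispersed sequences with most of their copies in MIZ-1DPOZ peaks. Of the 1295 copies of sequence 7, 1174 (90.7%, 88.9 to 92.1) lay in MIZ-1DPOZ peaks and 91 (7.03%, 5.76 to 8.55) in MIZ-1WT peaks. Sequence 6 was similar, with 1252 of 1413 copies (88.6%, 86.8 to 90.2) in MIZ-1DPOZ peaks and 141 (9.98%, 8.52 to 11.7) in MIZ-1WT peaks. Nearly all MIZ-1WT copies were in MIZ-1DPOZ peaks too, 90 of 91 for sequence 7 and 139 of 141 for sequence 6. In both groups the summits lay at or next to the sequence. The median summit lay 2 bases before its first base for sequence 7 (quartiles 16 before and 18 after) and 4 bases after it for sequence 6 (quartiles 12 before and 25 after). Picking the sequence held by most summit windows favours sequences near the summit. This nearness is therefore in part a description of that choice and was not tested.

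The regularly spaced sequences were occupied in both lists, as were sequences 6 and 7 at lower MIZ-1WT shares. For sequence 8, 4024 of 4364 copies (92.2%, 91.4 to 92.97) lay in MIZ-1DPOZ peaks and 2016 (46.2%, 44.7 to 47.7) in MIZ-1WT peaks. For sequence 3, these numbers were 6733 of 10357 (65.0%, 64.1 to 65.9) and 1536 (14.8%, 14.2 to 15.5). Again, 99.4% and 98.8% of the copies in MIZ-1WT peaks were in MIZ-1DPOZ peaks as well. Sequence 3 was held by 4.62% of the MIZ-1DPOZ-only repeat peaks, 11.2% of the shared ones and 0.431% of all distal repeat windows, but by 0.109% of the MIZ-1WT-only repeat peaks.

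Sequences 1, 4 and 10 differed from these. Only 4026 of the 42746 copies of sequence 1 (9.42%, 9.15 to 9.70) lay in MIZ-1DPOZ peaks and 1667 (3.90%, 3.72 to 4.09) in MIZ-1WT peaks, and 26.6% of the latter were in both. Sequence 4 had 4.52% and 1.48% of its 41095 copies in the lists, and sequence 10 had 2.64% and 0.651% of its 30121 copies. Of their copies in MIZ-1WT peaks, 14.3% were in MIZ-1DPOZ peaks for each. The simple runs also had low and mostly separate occupancy. Of the copies in MIZ-1WT peaks, 26.95% were in MIZ-1DPOZ peaks for sequence 2, 11.8% for sequence 5 and 33.1% for sequence 9. Sequence 1 was more frequent in the MIZ-1WT-only repeat peaks, at 16.3%, than in the MIZ-1DPOZ-only ones, at 9.59%. The same order held for sequence 2 (12.3% and 4.88%), sequence 4 (6.68% and 3.62%) and sequence 5 (8.11% and 4.03%). It also held for sequence 9 (3.48% and 2.36%) and sequence 10 (2.50% and 2.18%).

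The order of the lists depended on their length for some of the sequences. With the MIZ-1DPOZ list cut to its 34209 strongest peaks, a setting chosen after seeing the data, 88.4% of the copies of sequence 8 remained in MIZ-1DPOZ peaks, 76.6% of sequence 6, 73.0% of sequence 7 and 60.3% of sequence 3. Each of these was above the MIZ-1WT share, in the direction that the choice of the sequences favours. For the other 6 sequences the order turned. The cut removed the weakest peaks of the MIZ-1DPOZ list and left the MIZ-1WT list whole. Peaks with these sequences were low, with median pileups between 9 and 12. The turn is thus in the direction that the cut favours, and no conclusion is drawn from it. Sequence 1 was at 2.54% compared with 3.90% in the MIZ-1WT list, sequence 4 at 0.642% compared with 1.48%, and sequence 10 at 0.216% compared with 0.651%. The simple runs followed, with 0.608% compared with 0.717% for sequence 2, 0.674% compared with 0.899% for sequence 5 and 6.43% compared with 7.96% for sequence 9.

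**Figure D4:**
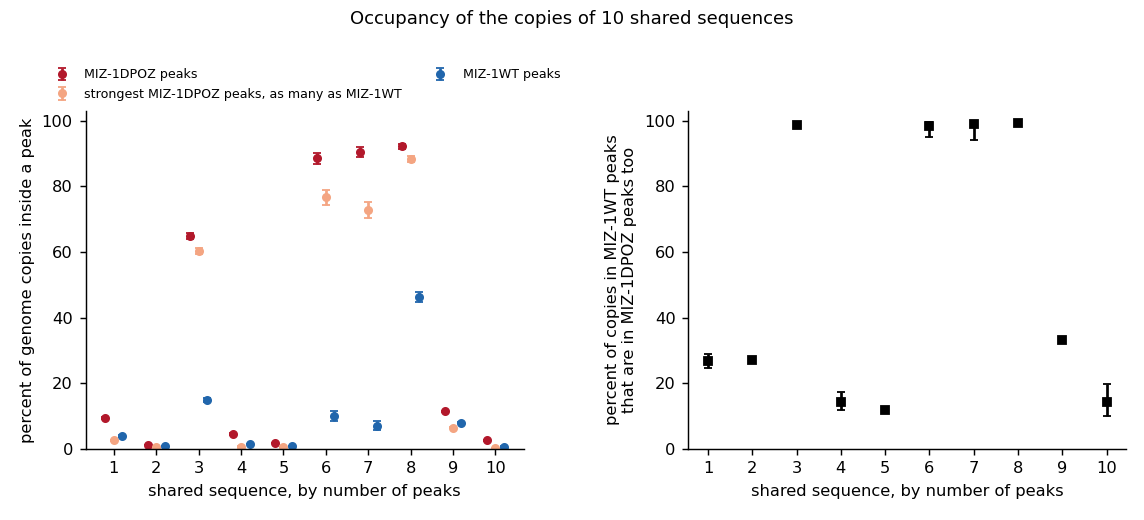
Left, percent of the genome copies of each shared sequence (numbered 1 to 10) inside MIZ-1DPOZ peaks (red), inside as many of the strongest MIZ-1DPOZ peaks as the MIZ-1WT list holds (light red) and inside MIZ-1WT peaks (blue), with 95% Wilson intervals. Right, percent of the copies in MIZ-1WT peaks that are in MIZ-1DPOZ peaks too. Sequences 3, 6, 7 and 8 stand high on the right and, for MIZ-1DPOZ peaks, on the left. The other 6 stay at or below 11.5% on the left and 33.1% on the right. For MIZ-1WT peaks, sequences 6 and 7 are low on the left as well, at 9.98% and 7.03%.

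The 4 highly occupied sequences also carried the higher peaks. The median pileup was 24 for peaks with sequence 6 (quartiles 20 and 29), 23 with sequence 7 (19 and 28), 22 with sequence 8 (15.5 and 30) and 20 with sequence 3 (14 and 28). It was between 9 and 12 for the peaks of the other 6 sequences, and 12 for the 19375 peaks with none of the 10. The local background moved in the same way, with medians of 3.18, 3.51, 2.16 and 2.13 fragments for sequences 6, 7, 8 and 3 and 1.35 for each of the other 6. Its part in the result was not tested. These windows were rich in CpG, with medians of 12, 9, 11 and 11 compared with 0 to 7 for the others. The median copy number of the summit sequence was 31 for sequence 8, 55 for sequence 3, 210 for sequence 6 and 905 for sequence 7, which lay between the values of the other 6. These were 1 for sequences 2 and 5 and 13 for sequence 9, but 3164 for sequence 1, 4219 for sequence 4 and 4378 for sequence 10.

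The 10 strongest peaks all came from multi-copy repeat. The peak with the largest −log10 q (51.5) lay on chromosome 15 from 15700838 to 15701165, between genes, with 51 fragments, a fold of 19.05 and a summit sequence in 14 copies. The second, on chromosome 4 from 94705197 to 94705544, had 52 fragments, a fold of 16.5 and 1092 copies, and its nearest start site was that of Tek, an endothelial receptor gene. The third lay in an intron of Cecr2, a gene for a chromatin remodelling factor, on chromosome 6 from 120688136 to 120688476, with 45 fragments and the highest fold of all, 19.3. The next 7 had 44 to 59 fragments and folds of 11.9 to 17.5, and 6 of them were intergenic, the other being in an intron of Unc79. The 10 had 14 to 1167 copies, and each had at least 3 of its 5 sequences in a MIZ-1WT peak elsewhere. Of these 10, 3 held sequence 8 and the others held none of the 10.

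The strongest peaks of the commonest sequences ranged widely. With sequence 1 it was in an intron of Ano2, a calcium-activated chloride channel gene, with 25 fragments and a fold of 11.1, and its summit sequence had 3079 copies. With sequence 4 it was intergenic, with 30 fragments and a fold of 6.54. With sequence 2 it was intergenic too, with 30 fragments, a fold of 13.2 and a single-copy summit sequence. With sequence 3 it had 51 fragments, a fold of 13.0 and 908 copies. Chosen after the values were seen, the strongest peak of sequence 6 lay in an intron of Negr1, a neuronal adhesion gene, with 50 fragments and a fold of 14.1. That of sequence 7, chosen likewise, was intergenic, with 51 fragments and a fold of 11.3.

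Short motifs followed the repeats. The palindrome TGACGTCA, the full cyclic AMP response element, was found on either strand in 481 summit windows (1.501%, 1.37 to 1.64), compared with 0.136% of all 2097160 distal repeat windows and 0.205% of the MIZ-1WT-only repeat peaks. Of these 481 windows, 466 held one and the same 20-base sequence, found after the motif counts were seen, whose last bases are the motif in capitals:
sequence with the motif: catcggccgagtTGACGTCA
This sequence had 2297 copies in the genome, of which 535 (23.3%, 21.6 to 25.1) lay in MIZ-1DPOZ peaks and 23 (1.00%, 0.668 to 1.498) in MIZ-1WT peaks, with 8 in both. Since it was found in MIZ-1DPOZ-only peaks, these shares largely restate how it was chosen. Its peaks had a median pileup of 15. The GC box GGGCGG was found in 9.75% of the windows, compared with 2.47% of all distal repeat windows and 2.59% of the MIZ-1WT-only repeat peaks. Of the windows that had it, 34.3% held sequence 6, which contains it, and the shared repeat peaks had it in 24.8%. CCAAT was present in 37.95% of the windows and 35.2% of all distal repeat windows, and the peaks of sequence 1 had it in 98.7%. The E-box CACGTG, bound by MYC, was in 2.92% of the windows compared with 1.83%, and 23.7% of the windows that had it held sequence 2.

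Some motifs were rarer than in repeats at large. The octamer ATGCAAAT, bound by POU factors of B cells, was in 1.06% of the windows compared with 2.15%, and 43.1% of the windows that had it held sequence 10. The MIZ-1WT-only repeat peaks had the octamer in 2.73%, and their median GC was 48.3% compared with 55.2% for the peaks described here. The rate of GAGGAAGT, a PU.1-type site, was 1.09% compared with 1.43%. GTTCGANNC and GTTCAANNC, forms of the B box of RNA polymerase III promoters, were in 1.43% and 0.715% compared with 3.15% and 6.58%. The ETS form CCGGAAGT was found in 20 windows (0.0624%, 0.0404 to 0.0964), an interval that holds the background of 0.0875%. The CTCF-type AGGGGGCGC was found in 15 (0.0468%, 0.0284 to 0.0772), above the background of 0.0256%. All motifs were searched on both strands. All distal repeat windows were held only to the same minimum of GC and not to the same distribution. The part of GC content in these motif rates was not tested. The ETS and PU.1-type motifs share their last 6 letters, and a match says only that the letters are there.

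Matches to 1 annotated B1 element and to the 7SL, transfer and BC1 RNAs were less frequent than in the background windows. Similarity was an alignment of at least 50 bases at 70% identity or more within the summit window. An annotated B1 element was matched by 470 peaks (1.47%, 1.34 to 1.60) compared with 9.46% (9.28 to 9.64) of the background windows and 4.12% of the MIZ-1WT-only repeat peaks. The 7SL RNA, the RNA of the signal recognition particle from which B1 derives, was matched by 70 peaks (0.218%, 0.173 to 0.276) compared with 1.21%. None of the 7SL alignments reached 100 bases in either set. Transfer RNA genes were matched by 39 peaks (0.122%) compared with 1.56%, and the BC1 RNA by 27 (0.0843%) compared with 0.283%. The annotated LTRIS4 element, a long terminal repeat, was matched by 56 peaks (0.175%, 0.135 to 0.227) and 0.145% (0.124 to 0.170) of the windows, which differ by less than the counting error.

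Simple runs were frequent. At least 40 bases of the summit window lay in exact tandem runs of a unit of up to 6 bases for 4794 peaks (14.96%, 14.6 to 15.4), compared with 6.42% (6.27 to 6.57) of the background windows. The shared repeat peaks had 14.6%, and the MIZ-1WT-only repeat peaks had the most, 21.5%. The tandem peaks had a median pileup of 11 and the remaining peaks 12, and 39.7% and 70.7% of them were multi-copy.

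The peaks lay outside genes in most cases. Between genes stood 21340 summits (66.6%, 66.1 to 67.1) and in introns 10565 (33.0%, 32.5 to 33.5), compared with 64.8% and 34.4% (34.1 to 34.7) of the background windows. In an untranslated or noncoding exon lay 126 summits (0.393%), compared with 0.759% of the background windows. In a coding exon lay 16 (0.0499%, 0.0307 to 0.0811), compared with 0.0286% of the background windows, and these intervals overlap. The non-repeat peaks of the same list differed, with 32.9% between genes and 18.0% in coding exons. Both sets of peaks were chosen by masking, so this contrast is in part a description of that choice and was not tested. The median distance to the nearest start site was 25.1 kb, and the median gap to the nearest MIZ-1WT peak was 27.3 kb (quartiles 10.1 and 58.2 kb). Within 1000 bp of a MIZ-1WT peak lay 1528 of the peaks (4.77%). Another MIZ-1DPOZ-only repeat peak stood within 10 kb of the summit for 35.2% of them.

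The peaks were spread over all chromosomes, sparsely on chromosome Y. Per 1000 distal repeat windows there were 15.3 peaks in the genome, between 13.6 on chromosome 11 and 18.3 on chromosome 13 among the autosomes, and 14.1 on chromosome X. Chromosome Y had 2.97, or 520 peaks, and 99.8% of these were multi-copy. On chromosome X the multi-copy share was 84.6%, and on the autosomes it ranged from 55.9% to 69.0%. By group, 10.4% of the sequence 1 peaks and 11.1% of the sequence 4 peaks were on chromosome X, compared with 6.78% of the peaks with none of the 10. On chromosome Y were 5.94% of the sequence 3 peaks, compared with 1.64% of those with none of the 10. The spread of the genome copies of these sequences over chromosomes was not analysed, nor was the multi-copy share of the windows of each chromosome.

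**Figure D5:**
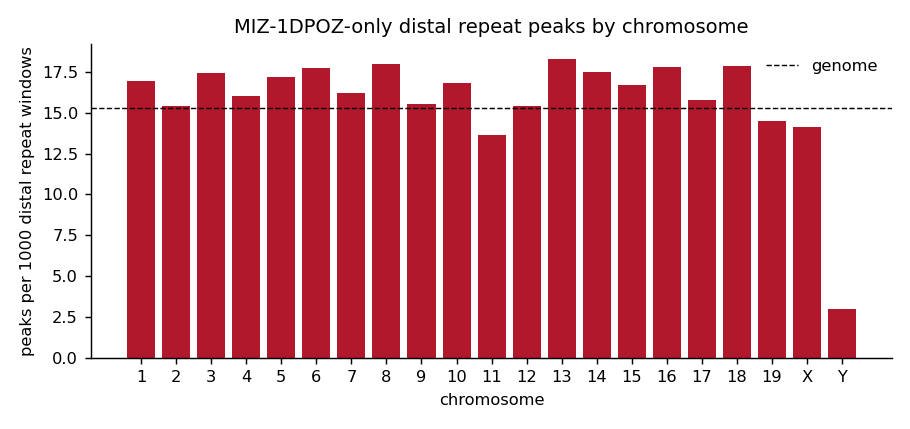
Number of MIZ-1DPOZ-only distal repeat peaks per 1000 distal repeat windows on each chromosome, with the value for the genome (15.3) as a dashed line. The autosomes lie between 13.6 and 18.3, and chromosome Y is lowest at 2.97.

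Genes held these peaks by their length. A summit lay in the body of 4016 of 21951 protein-coding genes (18.3%), from 1.12% of genes below 10 kb to 65.7% of genes of 100 to 300 kb and 96.5% of longer ones. Lengths are the spans that the annotation gives each gene, and spans can overlap, so that a peak can count for several genes. By these spans, Gm20388 held the most, with 36 over 4435 kb. Fgfr2, a fibroblast growth factor receptor, followed with 29 over 2961 kb, and Lrp1b, a lipoprotein receptor family member, with 28 over 2058 kb. Ctnna3, an alpha catenin, had 25 over 1574 kb and Dmd, which encodes dystrophin, had 24 over 2257 kb. Per 100 kb, these genes had 0.812, 0.979, 1.36, 1.59 and 1.06 peaks, and all protein-coding genes together had 0.833.

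Of 33 listed B cell genes, 11 held at least 1 of the peaks (33.3%, compared with 18.3% of all protein-coding genes). The listed genes were longer, with a median of 81.1 kb compared with 17.4 kb. Per 100 kb they had 0.667 of the peaks, below the 0.833 of all protein-coding genes. All 4 listed genes over 300 kb and 6 of the 10 between 100 and 300 kb held a peak, whereas none of the 8 below 30 kb did. Cd79a, Cd79b and Ms4a1 are among the short ones without a peak.

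Itpr1, a calcium channel of the endoplasmic reticulum, held 4 peaks of 10 to 14 fragments. In Prkcb, a kinase downstream of the B cell receptor, the only one lay on chromosome 7 from 122304382 to 122304651, with 19 fragments, a fold of 8.52 and a single-copy summit. Ptk2, the focal adhesion kinase, held 2, with 26 and 10 fragments. The higher one lay on chromosome 15 from 73377823 to 73378064, with a fold of 8.63 and 36 copies.

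The peaks in genes of lineage factors lay around the median pileup of all the peaks, 12. Pax5 held 2 with 10 and 13 fragments, both single-copy, and Ebf1 held 2 with 10 and 13 fragments and 13900 and 2991 copies. Bach2, which restrains plasma cell differentiation, held 2 with 9 fragments each. Nfatc1, a calcium-regulated factor, held 2 with 11 and 14 fragments. Of the signalling genes, Blnk, an adaptor protein, held 1 with 8 fragments, and Plcg2, a phospholipase, held 1 with 10. In these 2 genes and at both Bach2 peaks the fold was 3.83 to 4.68, below the median of all the peaks.

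The limits of the selection cut through continuous ranges. The 823 peaks with 50% to 55% masked bases had a median pileup of 11, as did 763 otherwise equal peaks with 45% to 50%, and 8.02% and 9.57% of them were multi-copy. At the GC limit, 792 peaks with 40% to 42% and 553 with 38% to 40% both had a median pileup of 10, with 78.03% and 81.7% multi-copy. Next to the overlap limit, 290 peaks lay less than 200 bp from a MIZ-1WT peak and had a median pileup of 11. In contrast, 3127 shared repeat peaks that overlapped a MIZ-1WT peak without covering 50% of each other had a median pileup of 33.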

How the data were processed

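MIZ-1 ChIP-seq of B220+ mouse splenocytes comprised 4 libraries, 1 ChIP and 1 input of each genotype. The authors trimmed the reads, aligned them to mm10 and called peaks of each ChIP against its input with MACS2. The submitters' processing notes name Bowtie2 2.2.6 and MACS2 2.1.0, whereas the methods name bwa. The handling of reads with several matches is not given in the sources used here. The deposited peak lists give, per peak, the fold enrichment over local background (a ratio), −log10 p and −log10 q, a score that is 10 times the −log10 q, and the summit. Library totals are not analysed here, and the depth ratio is an estimate from the lists.

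Pileup and background were solved from the fold and the Poisson p-value, with a solution for 100% of peaks. Peaks were placed against 77258 start sites of the GENCODE basic annotation (55450 genes), and masking, sequence and copies were read from the RefSeq soft-masked GRCm38 genome. Tools were Python 3.11.15, numpy 2.4.6, pandas 2.3.3, scipy 1.17.1, bedtools 2.31.1 and blastn 2.17.0, and the calculations were tested on simulated data. Shares carry 95% Wilson intervals for counting error only. No test between genotypes was possible.

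Named were the 10 peaks with the largest −log10 q, the strongest peak of each of the 4 commonest shared sequences, the 5 protein-coding genes with most peaks, and listed B cell genes with a peak. Some listed genes are not reported here by name. The peaks, lists and motifs were chosen with earlier results of these data known. Alternatives changed the cutoffs of score, fold, masking, GC, overlap, start-site window, list length, copies and alignment.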

Additional observations from a re-analysis of the deposited data

How the results depend on the processing

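Each of the 6 main values was recomputed with 1 choice changed at a time. Of these values, 24 stayed within their counting interval or, for the number of peaks, within 1.5 times, and 27 did not, and the cause was not tested. With a fold of at least 5 in both lists there were 18942 peaks, with 63.2% multi-copy, 62.1% with a sequence in a MIZ-1WT peak elsewhere, a median fold of 5.996 and 0.148% similar to 7SL. With the MIZ-1DPOZ list cut to the length of the MIZ-1WT list there were 13273, and these values were 66.9%, 69.4%, 6.39 and 0.121%, with 32.2% in introns. With a −log10 q of at least 5 in both lists, 60.9% had a sequence in a MIZ-1WT peak elsewhere, the median fold was 5.96 and 0.134% were similar to 7SL. With over 80% masked, 76.1% were multi-copy, 73.0% had a sequence in a MIZ-1WT peak elsewhere, the median fold was 4.98, 31.0% were in introns and 0.161% were similar to 7SL. With a GC of at least 50% the first pair of shares was 62.6% and 60.3%, and without a MIZ-1WT peak within 1000 bp 65.3% and 63.7%. With sharing defined by a reciprocal overlap of 50%, 67.9% were multi-copy. A median count above 10 held for 55.6%, at least 3 of 5 sequences in a MIZ-1WT peak elsewhere for 45.5%, and a 7SL alignment of at least 100 bases for 0%. No paired analysis was possible because there was 1 ChIP library for MIZ-1WT and 1 for MIZ-1DPOZ.

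The lists hold no MIZ-1WT fragments below the calling threshold, so that a peak absent from that list was not shown to lack them. Positions within multi-copy sequence depend on how reads were placed, which the peak lists do not record.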
